A study of Mus musculus with 18 samples.

Results

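The set holds 8 genes of mouse round spermatids (RS) whose RNA differed between 2 mouse lines with altered GRTH, the testicular RNA helicase made from Ddx25. They are Gm33242, AC061963.1, Gm26715, Gm6853, Cpne7, Slc4a10, Ptprv and Gm9597, 8 of the 54232 genes in the count table. They were chosen by their counts, because 5 of the KI libraries, all but the library labelled KI 4, differed from the KO libraries. The difference between KI and KO is therefore a description here, with no p given for the 8. The study compared RS of 3 genotypes, wild type (WT), knockout of GRTH (KO) and knock-in (KI), in mice 75 to 85 days old, with 6 libraries per genotype and 18 in all. RS were taken from testes with a BSA gradient. KO mice lack GRTH. KI mice carry a human GRTH gene with a missense mutation, an arginine changed to histidine, and do not make phosphorylated GRTH. No treatment is given for any group, and the strain background of the 3 genotypes is not given in the sources used here, so genotype and strain background cannot be told apart in any comparison. Nothing in the labels says whether a library came from 1 mouse or a pool, so the p-values measure the spread between libraries, which may be partly technical.

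RS are haploid germ cells that have left meiosis and have not yet begun to elongate. They transcribe a large part of the genome, pseudogenes and long noncoding RNAs included, and store many of the RNAs they make for later use. GRTH binds such RNAs, helps to carry them out of the nucleus and takes part in their translation, and spermatids without it stop developing before they elongate. Of the 8 genes, Cpne7 and Slc4a10 are annotated as protein coding. Cpne7 makes a copine, one of a family of proteins that bind phospholipids when calcium is present. Slc4a10 makes a sodium-coupled bicarbonate transporter of the cell membrane, best known from neurons. Ptprv belongs to the receptor type protein tyrosine phosphatases, and its transcript is annotated as a processed transcript. Gm33242 is a processed pseudogene, Gm6853 and Gm9597 are transcribed unprocessed pseudogenes, Gm26715 is a long intergenic noncoding RNA and AC061963.1 is an antisense RNA.

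Gene positions are on GRCm38, as in the deposited table. Gm33242 (ENSMUSG00000110448) lies at chr8:83489743-83490799 on the minus strand, Gm6853 (ENSMUSG00000109586) at chr8:30177932-30183860 on the minus strand and Cpne7 (ENSMUSG00000034796) at chr8:123117374-123135182 on the plus strand, so 3 of the 8 lie on chromosome 8, far apart from each other. AC061963.1 (ENSMUSG00000110773) lies at chr9:44877891-44884397 on the plus strand, over the 5′ end of Kmt2a on the minus strand, 9.32 Mb from Ddx25. Gm26715 (ENSMUSG00000097659) lies at chr13:66349396-66365772 on the plus strand and Gm9597 (ENSMUSG00000090788) at chr14:43386214-43394024 on the plus strand. Slc4a10 (ENSMUSG00000026904) spans chr2:62046462-62326730 on the plus strand and Ptprv (ENSMUSG00000097993) spans chr1:135108497-135132594 on the minus strand.

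Of the 8 genes, 4 have close copies elsewhere in the genome, found by aligning their longest transcript to all mouse transcripts. The aligned stretches are shown because a read pair was counted only where it could be placed at 1 position. Within the aligned part of a gene this depends on the few bases that differ. Gm33242 was 97.6% identical over 1058 aligned bases to the protein-coding gene Gm4787 on chromosome 12. Within the coding part of Gm4787, the stretch of 180 bases with the most differing positions holds 15 of them. It lies in the single exon of Gm33242 at chr8:83490094-83490273 (minus strand) and in Gm4787 at chr12:81378553-81378732 (minus strand). Differing bases are in capitals.
Gm33242: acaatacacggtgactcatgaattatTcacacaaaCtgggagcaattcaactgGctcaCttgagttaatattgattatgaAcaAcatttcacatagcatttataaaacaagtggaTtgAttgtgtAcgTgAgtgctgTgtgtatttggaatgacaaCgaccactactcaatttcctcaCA
Gm4787: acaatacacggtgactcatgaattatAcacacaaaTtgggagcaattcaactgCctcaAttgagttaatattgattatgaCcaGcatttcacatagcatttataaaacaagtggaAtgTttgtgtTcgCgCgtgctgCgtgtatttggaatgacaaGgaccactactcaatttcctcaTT

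Gm6853 was 97.8% identical over 719 aligned bases to Tex24, a testis-expressed protein-coding gene that lies 2.83 Mb away on the same chromosome. The transcript of Gm6853 holds 4375 bases, so most of it lies outside that alignment. Within the coding part of Tex24, the stretch with the most differing positions holds 7 in 180 bases, in capitals. It lies in 1 exon of Gm6853 at chr8:30183175-30183354 (minus strand) and in Tex24 at chr8:27344617-27344796 (plus strand).
Gm6853: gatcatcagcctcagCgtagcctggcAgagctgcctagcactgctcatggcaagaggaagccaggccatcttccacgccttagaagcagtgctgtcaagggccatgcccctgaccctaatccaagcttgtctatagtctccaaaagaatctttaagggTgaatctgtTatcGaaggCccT
Tex24: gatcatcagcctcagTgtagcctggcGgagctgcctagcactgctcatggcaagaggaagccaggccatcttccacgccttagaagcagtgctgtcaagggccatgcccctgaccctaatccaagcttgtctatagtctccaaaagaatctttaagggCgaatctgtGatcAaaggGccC

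Gm26715 was 99.3% identical over 1095 aligned bases, its whole transcript, to the long intergenic noncoding RNA Gm26806, which lies 137 kb away. No stretch of 180 bases without a gap held more than 3 differing positions, again in capitals, in an exon of Gm26715 at chr13:66365055-66365234 (plus strand) and an exon of Gm26806 at chr13:66503697-66503876 (minus strand).
Gm26715: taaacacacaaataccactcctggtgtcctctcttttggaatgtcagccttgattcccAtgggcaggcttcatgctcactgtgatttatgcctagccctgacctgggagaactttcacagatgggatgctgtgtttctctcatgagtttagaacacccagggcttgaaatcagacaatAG
Gm26806: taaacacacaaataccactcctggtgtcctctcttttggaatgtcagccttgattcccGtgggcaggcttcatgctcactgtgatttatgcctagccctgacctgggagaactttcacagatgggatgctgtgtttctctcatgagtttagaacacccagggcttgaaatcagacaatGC

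Gm9597 was at least 90% identical over at least 300 bases to 30 other genes, more than any other of the 8, all of them on chromosome 14. The closest, Gm8267, was 97.1% identical over 1390 aligned bases. The stretch shown crosses 1 intron in each gene, from chr14:43387176 to 43388312 (plus strand) in Gm9597 and from chr14:44722873 to 44724000 (minus strand) in the coding part of Gm8267, and holds 8 differing positions, in capitals.
Gm9597: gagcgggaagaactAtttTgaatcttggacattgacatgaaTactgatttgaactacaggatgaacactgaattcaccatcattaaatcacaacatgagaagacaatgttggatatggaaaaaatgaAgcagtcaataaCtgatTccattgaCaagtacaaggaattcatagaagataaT
Gm8267: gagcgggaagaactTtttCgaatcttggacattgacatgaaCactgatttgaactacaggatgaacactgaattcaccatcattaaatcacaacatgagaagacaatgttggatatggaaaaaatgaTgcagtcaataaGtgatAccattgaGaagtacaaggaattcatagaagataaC

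No copy by the same criteria was found for AC061963.1, Cpne7, Slc4a10 or Ptprv. The sequences are those of GENCODE M21 on the reference genome, and alleles that the mice may carry were not read.

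The libraries held between 18766971 and 26776555 counts on genes. Levels are given as counts or as normalized CPM, the counts scaled to the library's size with TMM factors. The floor of a library was set at 3 counts, and floors cover counting error only. Ddx25 (chr9:35536647-35558528, minus strand) was at 566 ± 24.7 CPM in WT and at 69.9 ± 14.8 CPM in KO (SD, n = 6 each). It was between 0.0456 and 0.518 CPM in 5 KI libraries and at 56.8 CPM in the library labelled KI 4, inside the KO range of 47.6 to 90.8 CPM, so the targeted gene went against the label of that library. These are counts on the mouse gene, while KI mice carry a human GRTH gene. The study describes the non-phosphorylated protein as unaffected in KI. Whether reads of the human transcript were counted on Ddx25 was not tested, so its low KI counts do not give the level of GRTH RNA. The pair of libraries that stood closest to each other over all genes was also KO 2 and the library labelled KI 4. The library was kept in KI, as labelled, and each result is given without it where it moves. Libraries stood close in pairs within a genotype as well (WT 1 with WT 2, WT 3 with WT 4, WT 5 with WT 6, KO 4 with KO 5, KI 1 with KI 2 and KI 3 with KI 5).

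Gm33242, the processed pseudogene with the copy Gm4787, was present in every WT library and close to absent from KO. Its counts were 82, 95, 113, 116, 55 and 89 in WT 1 to 6. In KO 1 to 6 they were 1, 0, 0, 0, 0 and 0. In KI 1 to 6 they were 66, 75, 61, 0, 34 and 68. All KO libraries were at the floor, and the library labelled KI 4 held no count. The other KI libraries lay above every KO library and overlapped WT, at a lower mean. The level was 4.31 ± 1.27 CPM (SD, n = 6) in WT, which was at least 32.5-fold higher than the KO floor. In the 5 other KI libraries it was 2.61 ± 0.578 CPM (SD, n = 5), at least 19.6-fold higher than the KO floor.

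AC061963.1, the antisense RNA at Kmt2a, followed the same order of genotypes at a lower level. WT 1 to 6 held 33, 20, 31, 18, 23 and 26 counts. KO 1 to 6 held 0, 2, 3, 0, 1 and 0. KI 1 to 6 held 18, 23, 32, 0, 15 and 32. All KO libraries were again at the floor, and the library labelled KI 4 again held none. The WT level of 1.18 ± 0.337 CPM (SD, n = 6) was at least 8.93-fold higher than the KO floor, and that of the 5 other KI libraries, 1.03 ± 0.33 CPM (SD, n = 5), at least 7.79-fold higher. Reads were counted by strand, and Kmt2a itself, a histone methyltransferase gene, held 102 to 180 counts in WT, 123 to 319 in KO and 109 to 243 in KI, with libraries that overlapped between all genotypes.

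Gm26715, the long noncoding RNA on chromosome 13, varied more within WT than the others. WT 1 to 6 held 26, 36, 41, 53, 7 and 15 counts. KO 1 to 6 held 1, 0, 0, 1, 0 and 0. KI 1 to 6 held 19, 12, 9, 0, 13 and 14. Both low WT values came from WT 5 and WT 6, a pair of libraries that stood close to each other, and still lay above every KO library. The level was 1.40 ± 0.855 CPM (SD, n = 6) in WT, at least 10.5-fold above the KO floor, and 0.581 ± 0.163 CPM (SD, n = 5) in the 5 other KI libraries, at least 4.38-fold above it.

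Gm6853, the pseudogene that resembles Tex24, was the only one of the KO-low genes that KO libraries still held in quantity. It was at 43.6 ± 5.36 CPM (SD, n = 6) in WT, with counts of 1007, 1058, 847, 1054, 735 and 925 in WT 1 to 6. It was at 9.62 ± 2.48 CPM (SD, n = 6) in KO, with counts of 234, 290, 197, 222, 181 and 176. In KI it was at 31.2 ± 10.3 CPM (SD, n = 6), with counts of 836, 889, 929, 297, 594 and 791. The ratio of the means was 4.53 between WT and KO. KO libraries lay between 7.24 and 12.7 CPM, the library labelled KI 4 at 12.6 CPM and every other library of WT and KI at 27.7 CPM or more.

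Slc4a10, the bicarbonate transporter, was the only one of the 8 genes whose KO libraries stood apart on the high side. WT 1 to 6 held 49, 60, 57, 84, 38 and 56 counts. KO 1 to 6 held 129, 141, 222, 180, 165 and 162. KI 1 to 6 held 25, 41, 61, 129, 40 and 50. Slc4a10 was at 2.68 ± 0.788 CPM in WT and at 7.32 ± 1.60 CPM in KO (SD, n = 6 each), a ratio of 2.73, with no overlap between these libraries. The 5 other KI libraries, at 1.88 ± 0.612 CPM (SD, n = 5), overlapped WT. The library labelled KI 4, at 5.45 CPM, lay above all WT and KI libraries and just under the lowest KO library, at 6.15 CPM.

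In the remaining 3 genes KI stood apart and WT lay near KO. Cpne7, the copine, was low in WT, with 3, 7, 4, 6, 4 and 6 counts in WT 1 to 6. KO 1 to 6 held 10, 6, 7, 13, 10 and 14. KI 1 to 6 held 50, 62, 99, 8, 79 and 130. The library labelled KI 4, at 0.338 CPM, fell inside the KO range, and the lowest of the other KI libraries, at 2.20 CPM, lay above every WT and KO library. The level was 0.231 ± 0.0616 CPM in WT, 0.437 ± 0.13 CPM in KO and 3.08 ± 1.79 CPM in KI (SD, n = 6 each), and 3.63 ± 1.32 CPM (SD, n = 5) in KI without the library labelled KI 4, a ratio to WT of 15.7.

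Ptprv, the receptor type phosphatase, was among the least abundant of the 8 for its length. WT 1 to 6 held 3, 9, 2, 9, 7 and 8 counts. KO 1 to 6 held 4, 8, 4, 5, 2 and 5. KI 1 to 6 held 13, 26, 16, 11, 15 and 25. All KI libraries lay above all WT and KO libraries, here with the library labelled KI 4 as the lowest at 0.465 CPM beside a highest WT library of 0.436 CPM. The level was 0.290 ± 0.135 CPM in WT, 0.206 ± 0.0863 CPM in KO and 0.754 ± 0.232 CPM in KI (SD, n = 6 each). Ptprv passed the filter on low counts through KI alone, with 6 KI libraries and 0 of WT or KO at the filter's level, so its inclusion among the tested genes already rested on KI. Cpne7 passed through 5 KI and 3 KO libraries and 0 of WT.

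Gm9597, the pseudogene with 30 copies, was low in KI. WT 1 to 6 held 50, 49, 41, 48, 39 and 60 counts. KO 1 to 6 held 45, 86, 73, 70, 69 and 70. KI 1 to 6 held 13, 7, 15, 60, 13 and 15. The library labelled KI 4, at 2.54 CPM, lay inside the KO range, and the others, at 0.551 ± 0.157 CPM (SD, n = 5), lay below every WT and KO library. The level was 2.22 ± 0.319 CPM in WT and 3.003 ± 0.513 CPM in KO (SD, n = 6 each).

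**Figure D1:**
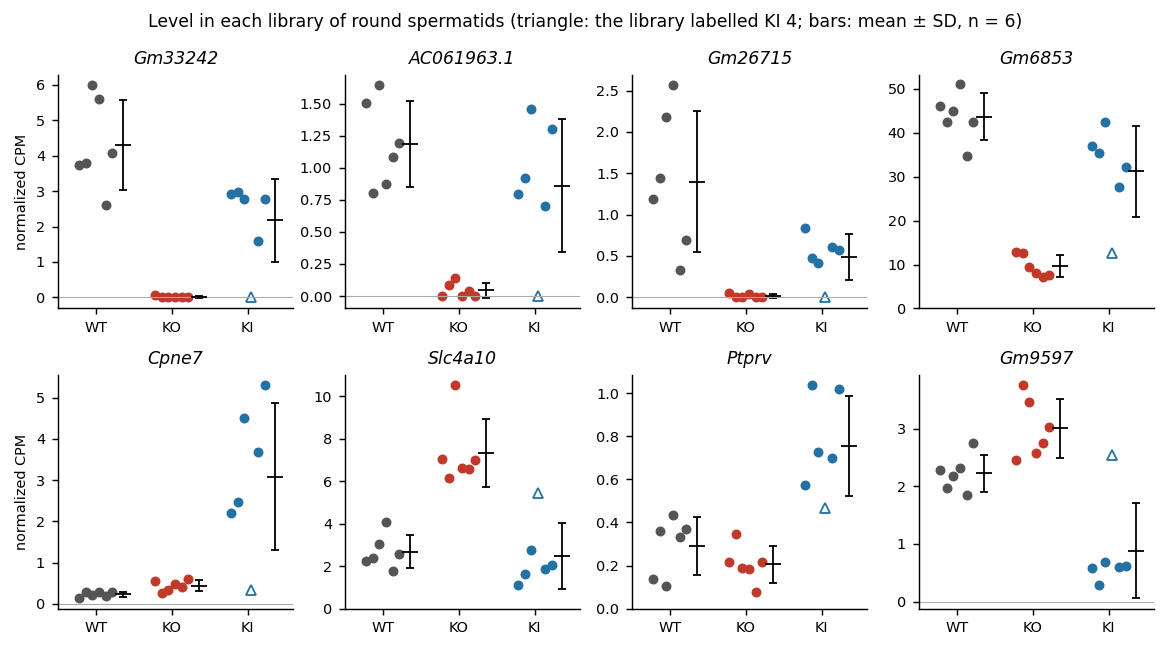
Normalized CPM (vertical axis, from 0, linear) of each of the 8 genes in the 6 libraries of WT, KO and KI. Each point is a library, the triangle is the library labelled KI 4, and the bar beside each group is the mean ± SD (n = 6). KO stands low in the 4 upper panels and high in Slc4a10, and KI stands apart in Cpne7, Ptprv and Gm9597. The triangle lies within the KO range in 6 of the 8 panels, of genes chosen with that library set apart.

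Without the library labelled KI 4, the KI and KO libraries did not overlap in any of the 8 genes, beside 1.2% of all tested genes. This is the property by which they were chosen. With that library in KI, 2 of the 8 did not overlap, Slc4a10 and Ptprv, beside 0.223% of all tested genes. The library labelled KI 4 lay within the KO range in 6 of the 8 genes and within the range of the other KI libraries in 0 of 8. The choice of the genes set that library apart and the share over all genes was not counted, so these counts are descriptions. The fitted log2 fold change of KI against KO, without that library, was 7.67 in Gm33242, 4.40 in AC061963.1, 4.86 in Gm26715, 1.86 in Gm6853, 3.04 in Cpne7 and 1.97 in Ptprv. It was -1.96 in Slc4a10 and -2.44 in Gm9597. The first 3 of these rest on the prior count, since KO was at the floor, and the bounds given above replace them.

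Per kb of exon, Gm6853 had the highest WT level of the 8 genes, at 9.97 ± 1.22 CPM per kb (SD, n = 6). Gm33242 followed at 4.08 ± 1.2 CPM per kb. Gm9597 at 1.60 ± 0.23 and Gm26715 at 1.28 ± 0.781 CPM per kb came next, and did not differ beyond their spread. AC061963.1 at 0.503 ± 0.143 and Slc4a10 at 0.418 ± 0.123 CPM per kb overlapped too, as did the lowest pair, Cpne7 at 0.0438 ± 0.0117 and Ptprv at 0.0415 ± 0.0193 CPM per kb. In KO the order changed, with Gm6853 at 2.20 ± 0.567 and Gm9597 at 2.16 ± 0.37 CPM per kb highest and overlapping. Slc4a10 followed at 1.14 ± 0.25 CPM per kb and Gm33242 fell to 0.00858 ± 0.021 CPM per kb. In KI without the library labelled KI 4, the order was Gm6853 at 7.98 ± 1.24, Gm33242 at 2.47 ± 0.547, Cpne7 at 0.690 ± 0.25, Gm26715 at 0.530 ± 0.149, AC061963.1 at 0.439 ± 0.14, Gm9597 at 0.397 ± 0.113, Slc4a10 at 0.293 ± 0.0952 and Ptprv at 0.116 ± 0.0295 CPM per kb (SD, n = 5). From Cpne7 down to Slc4a10, neighbours in that order lay within their spread of each other.

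The comparisons with WT asked which of the 2 genotypes had moved. Because KI and KO differ in all 8 genes, at least 1 of them had to lie away from WT, while the side that WT takes was not used in the choice. A quasi-likelihood model over all 18 libraries and 21058 tested genes was used (edgeR, Benjamini-Hochberg adjustment, adjusted p threshold 0.1). In KO against WT, 4 of the 8 genes were lower past 1 log2 unit (edgeR's glmTreat), beside 1.13% of all genes tested, and 0 were higher, beside 0.598%. Gm33242 fell with a fitted log2 fold change of -8.39 (SE 0.84, adjusted p = 7.15e-06, edgeR), Gm26715 with -6.12 (SE 0.80, adjusted p = 0.000331, edgeR) and AC061963.1 with -4.59 (SE 0.68, adjusted p = 0.00263, edgeR), values that depend on the prior count. These 3 genes had 0 KO libraries at the level of the low-count filter. Being tested thus rested on WT and KI, and their count as lower in KO supports nothing by itself. Gm6853, which passed the filter in every library, fell with a log2 fold change of -2.18 (SE 0.22, adjusted p = 0.00103, edgeR). For a change of any amount (edgeR's glmQLFTest), the same 4 were called lower, beside 13.5% of all genes, and 1 higher, Slc4a10, beside 16.4%. Its log2 fold change was 1.45 (SE 0.28, adjusted p = 0.000607, edgeR) and did not pass 1 log2 unit (adjusted p = 1, edgeR's glmTreat). In Cpne7 it was 0.90 (SE 0.52, adjusted p = 0.242 for any change, edgeR), in Ptprv -0.51 (SE 0.39, adjusted p = 0.399) and in Gm9597 0.43 (SE 0.31, adjusted p = 0.360). KO and WT libraries did not overlap in 5 of the 8 genes, beside 13.1% of all genes tested. The 5 include the 3 genes with 0 KO libraries at the filter's level, so this count is a description.

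In KI against WT, 1 of the 8 genes was higher past 1 log2 unit, beside 0.522% of all genes tested, and 0 were lower, beside 1.43%. This was Cpne7, with a log2 fold change of 3.70 (SE 0.45, adjusted p = 0.000405, edgeR's glmTreat). For any change, 2 genes were called higher, beside 16.1% of all genes, and 4 lower, beside 15.4%. The 2 higher were Cpne7 and Ptprv, which had 0 WT libraries at the level of the low-count filter and, for Ptprv, 0 of KO, so that being tested already rested on KI and their count supports nothing by itself. Ptprv was at a log2 fold change of 1.35 (SE 0.33, adjusted p = 0.00421, edgeR). Gm9597 fell with -1.33 (SE 0.34, adjusted p = 0.00540, edgeR). Gm26715 fell with -1.52 (SE 0.48, adjusted p = 0.0225, edgeR), Gm33242 with -0.98 (SE 0.42, adjusted p = 0.0929) and Gm6853 with -0.48 (SE 0.21, adjusted p = 0.0944), the last 2 close to the threshold. With close pairs of libraries summed, 2 of these 6 calls were left, Cpne7 and Ptprv, and with only KI and WT in the fit 3 were left, Gm26715, Ptprv and Gm9597. In AC061963.1 the log2 fold change was -0.45 (SE 0.45, adjusted p = 0.521) and in Slc4a10 -0.11 (SE 0.29, adjusted p = 0.833). The library labelled KI 4 entered each of these values. The choice of the 8 genes used the 5 other KI libraries, so the results without it that follow are descriptions. Without the library labelled KI 4, Gm9597 was lower past 1 log2 unit as well, with -2.01 (SE 0.22, adjusted p = 0.00616, edgeR's glmTreat), beside 1.51% of all genes. Cpne7 was then at 3.94 (SE 0.29, adjusted p = 6.06e-07, edgeR's glmTreat). Gm33242 remained lower than WT, at -0.72 (SE 0.23, adjusted p = 0.0279 for any change, edgeR). Gm6853, at -0.32, was no longer called for any change (adjusted p = 0.148, edgeR), which left 5 of the 8 genes called, beside 30.3% of all genes. That omission also added Cpne7 (0.90, adjusted p = 0.0568) and Gm9597 (0.43, adjusted p = 0.0837) to the genes called higher in KO by any amount, 7 of 8 in either direction, beside 30.5% of all genes. The 5 KI libraries and WT did not overlap in 3 of the 8 genes, Cpne7, Ptprv and Gm9597, beside 16.4% of all genes tested.

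**Figure D2:**
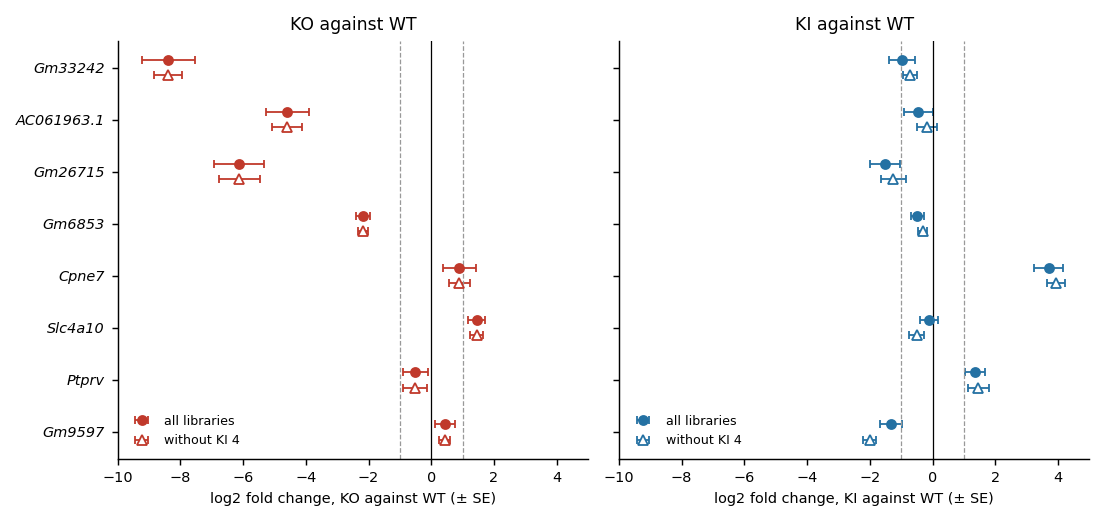
Fitted log2 fold change against WT (horizontal axis, ± SE) of the 8 genes, for KO on the left and KI on the right. Filled circles use all libraries, open triangles leave out the library labelled KI 4, and dashed lines mark 1 log2 unit. The 4 upper genes lie left of the line at -1 in KO, with Gm6853 at -2.18 in KO and -0.48 in KI, while Cpne7 lies at 0.90 in KO and 3.70 in KI.

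None of the closest copies was called between KI and KO in the direction of the gene it resembles. Gm4787, the copy of Gm33242, was at 144 ± 21.7 CPM in WT, 107 ± 24.3 CPM in KO and 92.8 ± 16.3 CPM in KI (SD, n = 6 each), and its log2 fold change of KI against KO without the library labelled KI 4 was -0.29 (SE 0.16, adjusted p = 0.594, edgeR). It thus held far more counts than Gm33242 in every library. Tex24, the copy of Gm6853, was at 26.3 ± 2.88 CPM in WT, 28.0 ± 6.07 CPM in KO and 20.4 ± 6.51 CPM in KI (SD, n = 6 each). It was lower in KI than in KO without the library labelled KI 4, by a log2 fold change of -0.65 (SE 0.14, adjusted p = 0.0465, edgeR), where Gm6853 was higher. Gm26806, the copy of Gm26715, was at 3.42 ± 1.34 CPM in WT, 2.26 ± 0.366 CPM in KO and 1.56 ± 0.928 CPM in KI (SD, n = 6 each), with -0.90 (SE 0.27, adjusted p = 0.247, edgeR) for KI against KO without that library. WT 5 and WT 6, low in Gm26715, were low in Gm26806 too, with 39 and 37 counts beside 83 to 97 in WT 1 to 4. Of the 30 copies of Gm9597, 24 were tested, and 2 of them were called lower in KI than in KO without that library, beside 0.522% of all tested genes called in either direction. Both of these, Gm8126 and Gm9732, were among the 7 tested copies within 500 kb of Gm9597, and 0 of the 17 farther copies were called, a count that this share would also give, with a median log2 fold change of 0.02. Gm8267, the closest copy, was at 2.92 ± 0.311 CPM in WT, 4.10 ± 1.04 CPM in KO and 4.33 ± 0.764 CPM in KI (SD, n = 6 each). How reads were shared between a gene and its copies could not be read from the counts, so the levels of these 4 genes are uncertain to that extent.

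**Figure D3:**
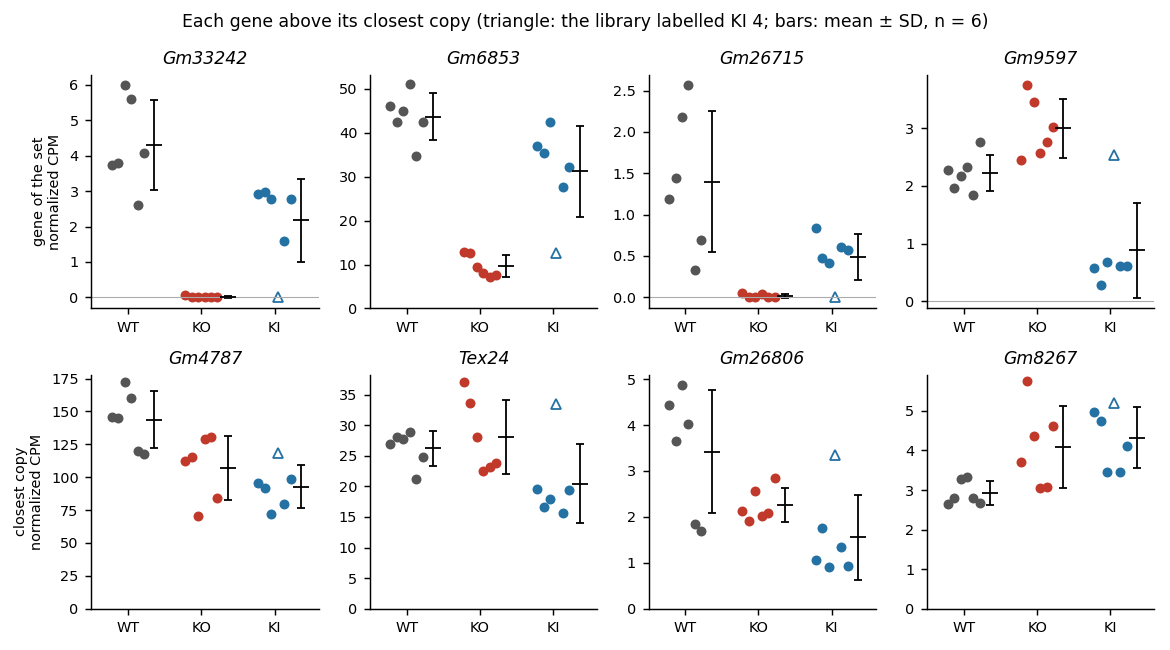
Normalized CPM (vertical axes, from 0, linear, a scale for each panel) of 4 of the genes in the upper row and of the closest copy of each in the lower row, by library. Triangles mark the library labelled KI 4 and bars are mean ± SD (n = 6). The KO libraries of Gm33242 lie at or near 0 while those of Gm4787 lie between 70.8 and 131 CPM, and the KI libraries of Gm9597 other than the triangle lie low while those of Gm8267 lie between 3.45 and 5.20 CPM.

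Genes that lie next to the 8 were counted in the same fit, without the library labelled KI 4 in this paragraph unless stated. Of the 140 tested genes within 500 kb of a member of the set, 12 differed between KI and KO by any amount (8.57%), beside 0.522% of all tested genes. With that library in KI, 2 of the 140 did, beside 0.0997% of all tested genes. Both shares of all tested genes include the 8 themselves. Neighbours of one another share position and in part sequence, so the counts are descriptions. The 12 lay near 4 of the 8 genes, with 5 of 32 near AC061963.1, 5 of 30 near Gm9597, 1 of 9 near Gm26715 and 1 of 19 near Gm33242. Within 500 kb of Cpne7 (30 tested genes), Ptprv (14) and Slc4a10 (6) none was called, and Gm6853 had no tested gene there. Within 1 Mb, 15 of 276 tested genes were called (5.43%), with Rab4a near Cpne7. Within 5 Mb, 21 of 915 were called (2.30%). Near these 4 genes they were Rab4a and Gm26812 (Cpne7), Ly75 and Gm13570 (Slc4a10), Inava (Ptprv) and Tex24 (Gm6853). The called neighbours named here and below were chosen after their values were seen.

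Near Gm9597, all 5 called neighbours were lower in KI, as Gm9597 was. Gm9732, 80.2 kb away, was at 4.87 ± 1.33 CPM in WT, 6.08 ± 0.831 CPM in KO (SD, n = 6 each) and 1.34 ± 0.254 CPM in KI without the library labelled KI 4 (SD, n = 5), a log2 fold change against KO of -2.17 (SE 0.20, adjusted p = 1.2e-06, edgeR). The protein-coding 1700001F09Rik, the nearest tested gene on one side, held 220 to 351 counts in those 5 KI libraries, 1523 in the library labelled KI 4, 787 to 1456 in KO and 930 to 1709 in WT, with a log2 fold change of -2.05 (SE 0.20, adjusted p = 4.05e-06, edgeR). Gm8138, the nearest on the other side, stood at -3.09 (SE 0.44, adjusted p = 0.000677), Gm8126 at -1.51 (SE 0.15, adjusted p = 5.07e-06) and Gm8127 at -1.43 (SE 0.31, adjusted p = 0.0484, all edgeR). In each of the 5 the library labelled KI 4 lay above every other KI library. Gm8138 held 11 to 23 counts in KO and 1 to 5 in the other KI libraries, 4 of them at the floor, so its fold change is uncertain.

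Near Gm26715, the protein-coding gene 2410141K09Rik, 52.3 kb away, repeated its order of genotypes. It held 44 to 90 counts in WT, 1 to 11 in KO and 27 to 96 in the 5 KI libraries, with 4 in the library labelled KI 4, and its log2 fold change of KI against KO was 3.47 (SE 0.33, adjusted p = 2.48e-06, edgeR). Gm46426, the nearest tested gene on the other side, held 0 counts in every KO library and 0 in the library labelled KI 4. It held 25 to 31 counts in WT 1 to 4, but 1 and 0 in WT 5 and WT 6, and 21, 25, 1, 13 and 0 in KI 1, 2, 3, 5 and 6, so WT and KI libraries each fell on both sides. Gm26754, whose span contains Gm26715 on the same strand and which did not pass the filter, held 0 counts in all KO libraries, 0 to 3 in WT 1 to 4, 16 and 15 in WT 5 and WT 6 and 4 to 14 in the 5 KI libraries. Reads that fell on exons of both genes would have been left uncounted.

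Near Gm33242, the called neighbour Tbc1d9, 217 kb away, was at 33.6 ± 8.33 CPM in WT, 12.6 ± 4.76 CPM in KO (SD, n = 6 each) and 27.2 ± 7.38 CPM in the 5 KI libraries (SD, n = 5), with a log2 fold change of KI against KO of 1.10 (SE 0.25, adjusted p = 0.0667, edgeR). The nearest tested genes, Gm5910 at -0.17 and Ndufb7 at -0.19, were not called. Near AC061963.1 the called genes stood on the other side from it, all lower in KI than in KO. They were C030014I23Rik at -1.75 (SE 0.24), Ift46 at -0.72 (SE 0.15), Cd3d at -1.27 (SE 0.23), Gm47596 at -2.43 (SE 0.42) and Gm39327 at -1.11 (SE 0.26), with adjusted p between 0.000522 and 0.0808 (edgeR). For Gm47596, 4 of the 5 KI and 5 of the 6 WT libraries were at the floor, beside 10 to 17 counts in KO, so its fold change is uncertain. The nearest tested genes of AC061963.1, Gm48702 at -0.12 and Atp5l at 0.11, and Kmt2a at -0.28 were not called.

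Around Cpne7, Rpl13 stood at -0.14 and Sult5a1 at -0.40. Around Ptprv, Lgr6 stood at -0.64 and Arl8a at -0.22, and the antisense Gm10535 inside it held 0 or 1 counts. Tbr1, on one side of Slc4a10, stood at 0.28, and Dpp4, on the other side, was at 0.87 with all libraries in the fit and did not pass the filter without the library labelled KI 4. None of these 6 genes was called. Gm20388 and Mir7080, whose spans overlap Cpne7, held 0 counts in every library, and Vmn2r-ps104, on the strand opposite to Gm26715, held 0 to 6.

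**Figure D4:**
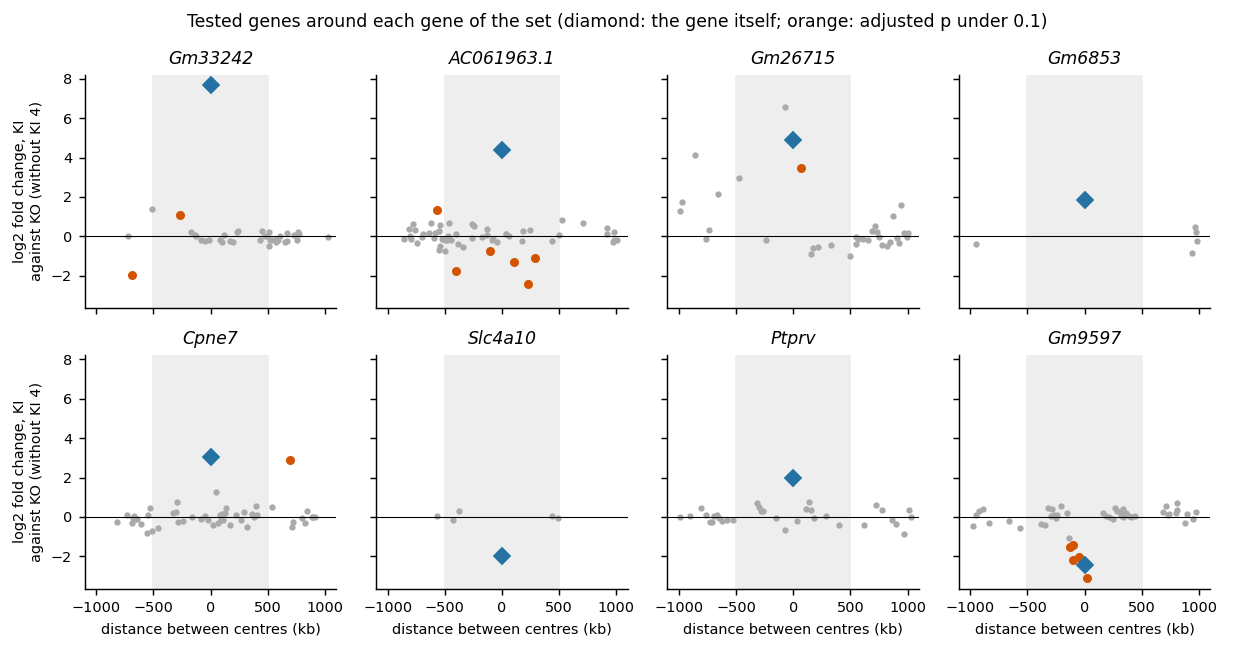
Fitted log2 fold change of KI against KO without the library labelled KI 4 (vertical axis) of tested genes by the distance of their centre from the centre of each of the 8 genes (horizontal axis, kb). The diamond is the gene itself, orange points had an adjusted p under 0.1 (edgeR), grey points did not, and the shaded band is 500 kb on either side. Orange points cluster beside Gm9597 on the side it takes, lie on the opposite side around AC061963.1, and are missing from the band around Cpne7, Slc4a10, Ptprv and Gm6853.

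By likeness over libraries, the 4 KO-low genes resembled one another most. Pearson's r of log2 CPM over the 18 libraries was 0.978 between Gm33242 and Gm6853, 0.958 between Gm33242 and AC061963.1 and 0.956 between Gm33242 and Gm26715, and for Gm33242 and Gm6853 all 3 of the genes most like each were others of the set. These libraries share genotype, and the 8 genes were chosen on them, so the values are descriptions. The third most like AC061963.1 was 2410141K09Rik (0.912) and the third most like Gm26715 was Tbc1d9 (0.889), the neighbours of Gm26715 and Gm33242. Genes like Slc4a10 included Ly75 (0.889) and 4930509E16Rik (0.885). Ly75, a lectin receptor gene 1.66 Mb from Slc4a10, held 14 to 31 counts in WT, 89 to 218 in KO, 14 to 24 in the 5 KI libraries and 191 in the library labelled KI 4. Cpne7 was most like Bdh1 (0.885), Mdm4 (0.856) and Pnpla7 (0.850). Bdh1, a ketone body dehydrogenase gene, was at 6.07 ± 0.634 CPM in WT, 12.8 ± 1.40 CPM in KO and 23.7 ± 5.59 CPM in KI (SD, n = 6 each). Ptprv was most like Lrch1 (0.876), Rab4a (0.838) and 4930563E18Rik (0.830). Rab4a, a small GTPase gene of endosomes, lies 0.67 Mb from Cpne7 and was at 1.08 ± 0.886 CPM in WT, 0.385 ± 0.188 CPM in KO and 2.49 ± 1.01 CPM in KI (SD, n = 6 each), with WT libraries that ran from 1 count in WT 1 to 49 in WT 6. Gm9597 was most like its neighbours Gm9732 (0.946), Gm8126 (0.910) and Gm8138 (0.903).

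**Figure D5:**
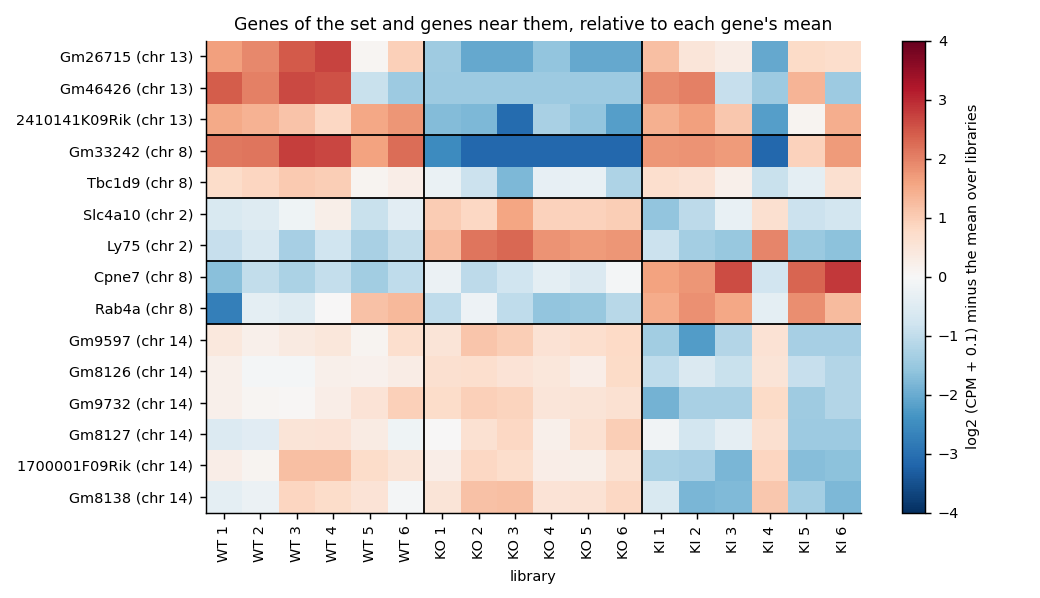
Heat map of Gm26715, Gm33242, Slc4a10, Cpne7 and Gm9597 and of genes that lie near them on the same chromosome (rows) in each library (columns). AC061963.1, Gm6853 and Ptprv are not drawn. Colour gives log2 of CPM + 0.1 minus the mean of the gene over all libraries, from -4 (blue) to 4 (red), and vertical lines separate WT, KO and KI. The column of the library labelled KI 4 resembles the KO columns, the chromosome 14 rows are blue in the other KI columns, and Gm46426 is red in WT 1 to 4 and blue in WT 5 and WT 6.

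The families of the protein-coding genes and of Ptprv were read from fixed lists in the comparisons with WT, for any change (edgeR). The shares of all tested genes called were 16.4% higher and 13.5% lower in KO, and 16.1% higher and 15.4% lower in KI, and the counts of genes are too small to read a departure from them. Of 9 copines 7 were tested. In KO 3 were higher and 0 lower, with Cpne8 at a log2 fold change of 1.53 (SE 0.29), Cpne2 at 0.99 (SE 0.33) and Cpne3 at 0.98 (SE 0.24). In KI 3 were higher, Cpne7, Cpne8 at 1.29 (SE 0.29) and Cpne3 at 0.57 (SE 0.24), and Cpne4 was lower at -1.25 (SE 0.43). The median of the 7 was 0.90 in KO, the value of Cpne7 itself, and 0.57 in KI, beside 0.03 and 0.05 over all genes tested. Cpne7, Slc4a10 and Ptprv, chosen on these data, are counted in their families. Of 10 bicarbonate transporters of the Slc4 family, 6 were tested. In KO, Slc4a10 was higher and Slc4a4 lower at -0.80 (SE 0.33), and in KI 1 was lower, Slc4a3 at -0.78 (SE 0.26), with medians of 0.01 and -0.05. Of 21 receptor type phosphatases, 20 were tested. In KO 5 were higher and 0 lower, and in KI 7 were higher and 1, Ptpre, lower at -0.57 (SE 0.24), with medians of 0.03 and 0.32. Ptprz1 was the only one of them past 1 log2 unit in either comparison, at 3.57 (SE 0.49) in KO and 3.33 (SE 0.50) in KI. Its WT level of 0.101 ± 0.0462 CPM (SD, n = 6) lay under the low-count filter's 0.44 CPM, so being tested rested on KO and KI. The others called higher were Ptpra, Ptprf, Ptprg and Ptprr in both KO and KI, and Ptprh and Ptprv in KI, at log2 fold changes of 0.34 to 0.79 apart from Ptprv.

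The libraries carried RNA of genes used as markers of several germ cell stages and of other testis cells, by the summed CPM of fixed marker lists. No listed gene was at the floor in every library. Markers of RS summed to 478 to 770 CPM in WT, 421 to 829 CPM in KO and 395 to 557 CPM in KI, and those of spermatocytes to 331 to 438, 413 to 484 and 396 to 458 CPM. Markers of elongating spermatids summed to 12651 to 17715 CPM in WT, 1482 to 3562 CPM in KO and 1907 to 3021 CPM in KI, so the WT libraries stood apart from both other genotypes. That list holds Prm2 and Tnp2, whose RNA, by the study's account, is already made in RS and stored there. It therefore does not separate elongating cells from RS. Leydig cell markers summed to 9.75 to 19.7 CPM in WT, 29.8 to 51.9 CPM in KO and 13.4 to 66.1 CPM in KI. Markers of endothelial cells summed to 11.2 to 18.01, 16.8 to 29.9 and 20.2 to 28.1 CPM, with KI above WT in every library. Those of spermatogonia summed to 28.5 to 39.1, 32.4 to 68.7 and 20.4 to 71.0 CPM. In 8 of the 10 lists the library labelled KI 4 was the highest of KI, and it was the highest of all libraries in 2 of them, spermatogonia and macrophages. Markers of Sertoli cells (18.7 to 40.3 CPM over all libraries), macrophages (5.83 to 12.04) and erythroid cells (0.762 to 3.19) were low and overlapped between genotypes. Those of peritubular myoid cells summed to 3.44 to 4.11 CPM in WT, 2.55 to 3.88 in KO and 1.75 to 3.25 in KI. KO and KI overlapped in every list, and the part of these cells in the levels of the 8 genes was not tested. In bulk RNA, fewer cells that make a transcript and less of it per cell cannot be told apart.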

How the data were processed

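RNA of RS was sequenced as strand-specific libraries of total RNA, made with a Takara Pico kit without polyA selection, from 6 libraries each of WT, KO and KI. The authors used cutadapt 3.4 for trimming, STAR 2.7.8a for alignment to GRCm38 and featureCounts (Subread 2.0.1) to count read pairs on GENCODE M18 genes, by strand and without removing duplicates. Read pairs with more than 1 alignment were not counted, so genes with near-identical copies can lose counts. The deposited values are raw counts for 54232 genes, used as they are, and all columns of values belong to a library (0 without one). Groups were taken from the labels.

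The 8 genes, the gene families and the marker lists were chosen with earlier results of these data known. GENCODE M21 on the same build gave a symbol to 54165 of the 54232 identifiers, and the span of all 8 genes was the same in both releases. Fits were made in R 4.3.3 (edgeR 4.0.16, limma 3.58.1). The filter filterByExpr (0.44 CPM in at least 6 libraries) left 21058 genes, TMM factors were used for scaling, and the quasi-likelihood model held genotype alone over all 18 libraries. The test for changes past 1 log2 unit was glmTreat (worst case null) and that for any change glmQLFTest, both two-sided with Benjamini-Hochberg adjustment over all genes tested and a threshold of 0.1. The same fit covered KI against KO over all genes, and no p of the 8 in that comparison is given. The shares of all tested genes called in that comparison include the 8. The fit was tested on simulated data for 20661 genes, 200 of them changed between KO and WT. The test for any change called 222 genes, 28 of them false, a share above the threshold of 0.1, and gave 194 of the changed genes the right sign. glmTreat called 131 with 0 false. Simulated libraries were drawn independently, while the real ones stood close in pairs, so the error rate in the real libraries cannot be read from this.

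The depth was 18766971 to 26776555 counts per library. A fold against a genotype with every library at or under 3 counts was computed against the mean of those floors and given as a lower bound. Copies are transcripts of other genes aligned with blastn 2.17.0 over at least 300 bases at 90% identity or more, and the stretch of 180 bases without a gap that held the most differing positions was printed. Where the copy was protein coding, the stretch was sought within its coding part only. Named genes are the 8, Ddx25, the nearest tested genes on either side within 500 kb, genes that overlap 1 of the 8, for each of the 8 the 3 genes with the highest Pearson's r of log2 CPM (prior count 2), and family genes called against WT. One result under this naming rule is not reported here. Copies and called neighbours outside that rule were named after their values were seen. Alternatives were DESeq2 1.42.0, DESeq2's size factors, no filter on low counts, a replicate block, a model of just the pair of genotypes compared, an adjusted p of 0.05, close pairs of libraries summed, windows of 1 and 5 Mb and each library left out in turn. The interval null of glmTreat, the omission of both KO 2 and the library labelled KI 4, and neighbours without the latter were added after seeing the data. Plots were made in Python 3.11.15 (matplotlib 3.10.9). MicroRNA libraries and the authors' own comparisons were not used here.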

Additional observations from a re-analysis of the deposited data

Results flagged for a closer look

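In 27 groups of 6 libraries, the levels of the 8 genes and of Ddx25 in each genotype, a library at either end of its group was compared with the rest by the gap to its nearest neighbour as a share of the group's range (Dixon's ratio at its 95% critical value), which chance passes in about 1 of 20 groups. In 4 groups a library stood apart. The library labelled KI 4 did so in 2 of them. It was at 2.54 CPM of Gm9597, where the other KI libraries lay between 0.279 and 0.683 CPM, and at 56.8 CPM of Ddx25, where they lay between 0.0456 and 0.518 CPM. KO 3 was at 10.5 CPM of Slc4a10, where the other KO libraries lay between 6.15 and 7.02 CPM. KO 1 was at 0.0544 CPM of Gm33242, which is 1 count, where the other KO libraries held 0.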

How the results depend on the processing

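In KO against WT, 4 of the 8 genes were past 1 log2 unit and 5 were called for any change, and no alternative moved either count by more than 1.5 times. When each library was left out in turn, these counts were 4 in every case and 5 to 7. In KI against WT, 1 gene was past 1 log2 unit and 6 were called for any change, and leaving out each library gave 1 to 2 and 4 to 6. With only the libraries of KI and WT, 0 were past 1 log2 unit (Cpne7 no longer passed the filter on low counts) and 3 were called for any change. With close pairs of libraries summed, 2 were called for any change in KI against WT. Without the library labelled KI 4, or without both it and KO 2, 2 were past 1 log2 unit. Replicate numbers were shared between the genotypes, but the correlations of the deviations of libraries with the same number ranged from -0.44 to 0.48 over 18 pairs, so the numbers were not taken to pair the libraries. With the replicate number as a block, the counts were 4 and 5 in KO against WT and 1 and 6 in KI against WT. KI and KO libraries did not overlap in 2 of the 8 genes, and leaving out each library gave 2 to 8, with 8 without the library labelled KI 4. Of the neighbours within 500 kb, 2 were called between KI and KO, 3 within 1 Mb or 5 Mb, and 12 within 500 kb without the library labelled KI 4, which was the only omission tried there. Slc4a10 in KI against WT, not called, changed sign to 0.0418 with close pairs summed and ran from -0.5087 without the library labelled KI 4 to 0.0442 without WT 4 when each library was left out, and the cause was not tested. Over the 8 genes in both comparisons and both tests, 794 values under alternatives kept direction and side of the threshold, 34 lost the call, 6 gained it and 6 changed sign. Low counts, of 2 to 14 per library in WT and KO for Cpne7 and Ptprv, limit what can be told of those genes.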
